A study of Homo sapiens with 22 samples.

Results

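The proteasome subunit genes of human acute myeloid leukaemia cells were followed across inhibition of the SWI/SNF chromatin remodelling complexes. All gene symbols made of PSMA, PSMB, PSMC or PSMD and a number were taken, which gave 39 of the 28063 symbols in each library's count table. The proteasome is the protease complex that degrades proteins tagged with ubiquitin. Its barrel-shaped 20S core has outer rings of alpha subunits (PSMA genes), which gate the entry, and inner rings of beta subunits (PSMB genes), 3 of which cut peptide bonds. The 19S cap recognises ubiquitin, unfolds the substrate with a ring of ATPases (PSMC genes) and carries further subunits (most PSMD genes). PSMD5, PSMD9 and PSMD10 encode chaperones that help to build the cap and are not part of the finished particle. In blood cells, and elsewhere after interferon, the catalytic subunits encoded by PSMB5, PSMB6 and PSMB7 are exchanged for those encoded by PSMB8, PSMB9 and PSMB10. The result is the immunoproteasome, which favours peptides that MHC class I can present.

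The 22 RNA-seq libraries of polyadenylated RNA formed 11 groups of 2. MOLM-13, MV-4-11 and THP-1 are leukaemia lines with KMT2A fusions, and each had a group given 1 µM BRM014 for 24 h, a group given it for 72 h and a group given the solvent DMSO. BRM014 blocks both ATPases of SWI/SNF, SMARCA4 and SMARCA2. THP-1 cells were also given 3 µM DB2313, which inhibits PU.1, a transcription factor of myeloid cells, for 72 h, or 10 nM PMA, a phorbol ester that turns monocytic cells into macrophage-like cells, for 48 h with a rest of 24 h. The labels give DMSO for 24 or 72 h without saying which library had which time, so the 24 h and 72 h comparisons of a line share its DMSO group, and an effect of time in culture cannot be told apart from one of BRM014. They do not say whether the libraries of a group came from separate cultures, so each p-value measures how these libraries vary, and that spread may be technical. Each line is a single cell line. Levels are in CPM, a gene's share of all reads in genes of the library on the usual scale, and CPM per kb divides them by the annotated exon length. Changes are log2 fold changes ± SE from edgeR's quasi-likelihood fit over all 22 libraries, with TMM scaling, and a gene was called, and is said to have risen or fallen, at a Benjamini-Hochberg adjusted p under 0.05 over the 16794 genes tested.

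Of the 39 genes, 37 passed the filter on low counts. PSMA8, which encodes an alpha subunit of the testis, had no read in any library, and PSMB11, which encodes a catalytic subunit of the thymus, had 12 reads in 6 libraries together. The libraries held 15893489 to 21565666 reads in genes (median 18853905), so a count of 0 in a library allows up to 0.139 to 0.189 CPM, by counting error only. The counts of a pair differed beyond counting error in each group (chi-square per degree of freedom 3.14 to 10.7, and 30.4 for the PMA pair). All 8 myeloid markers were present in each group, but their summed CPM was lower with BRM014 than with DMSO in MV-4-11 and THP-1 (in THP-1 590.5 to 597 at 24 h and 322 to 331 at 72 h, against 2499 to 2698 with DMSO). Summed myeloid markers in MOLM-13 were at 398 to 428 at 24 h and 1041 to 1051 at 72 h, against 1012 to 1066 with DMSO. Single markers there went both ways at 72 h, with 5 called lower and 2 higher (29.4% and 30.3% of all genes tested). In THP-1 with DB2313 the sum was 1353 to 1403, with 2 called lower and 5 higher (29.5% and 35.9%). Of 11 markers of other cell types, 3 to 8 were at 0 in a group, and their sum was under 15 CPM except for THP-1 at 72 h of BRM014 (118 to 128) and with DB2313 (36.9 to 40.8), where COL1A1 made up most of it at 72 h. Their part in the results was not tested.

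The members differed widely in how well a pair of libraries matched. For 34 of the 37 tested genes the higher library of a pair never exceeded the lower by more than 1.56 times in any of the 11 groups, with the highest ratios in the PMA pair (PSMB6 1.56, PSMB10 1.52 and PSMC3 1.52). For PSMB3, PSMB8 and PSMB9 the ratio passed 2 in 5, 2 and 8 groups, with maxima of 24.0, 5.09 and 9.02. PSMB3, a structural beta subunit gene (chromosome 17, 38752736 to 38764231, plus strand), had 5.95 and 143 CPM in MV-4-11 at 24 h and 36.1 and 2.27 CPM in MOLM-13 with DMSO. Such spread was also seen in their neighbourhood. Within 500000 bases, 10 of 18 tested protein-coding genes around PSMB3 (55.6%) and 17 of 21 around PSMB8 (81.0%) had a ratio over 2 in some group, against 8 of 32 around PSMB10 (25%) and 3748 of 14367 in all (26.1%). PSMB8 and PSMB9 overlap each other and PSMB8-AS1. The exons of PSMA2, PSMC1, PSMC5, PSMD1, PSMD6 and PSMD13 also overlap a gene on the other strand. Whether counting used strand is not stated, so the counts of all these members are uncertain to that extent. The cause of the spread was not tested. Counts averaged over the lines against DMSO are also given without these 3 genes. Of the other counts, only those that moved by more than 1.5 times are.

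**Figure D1:**
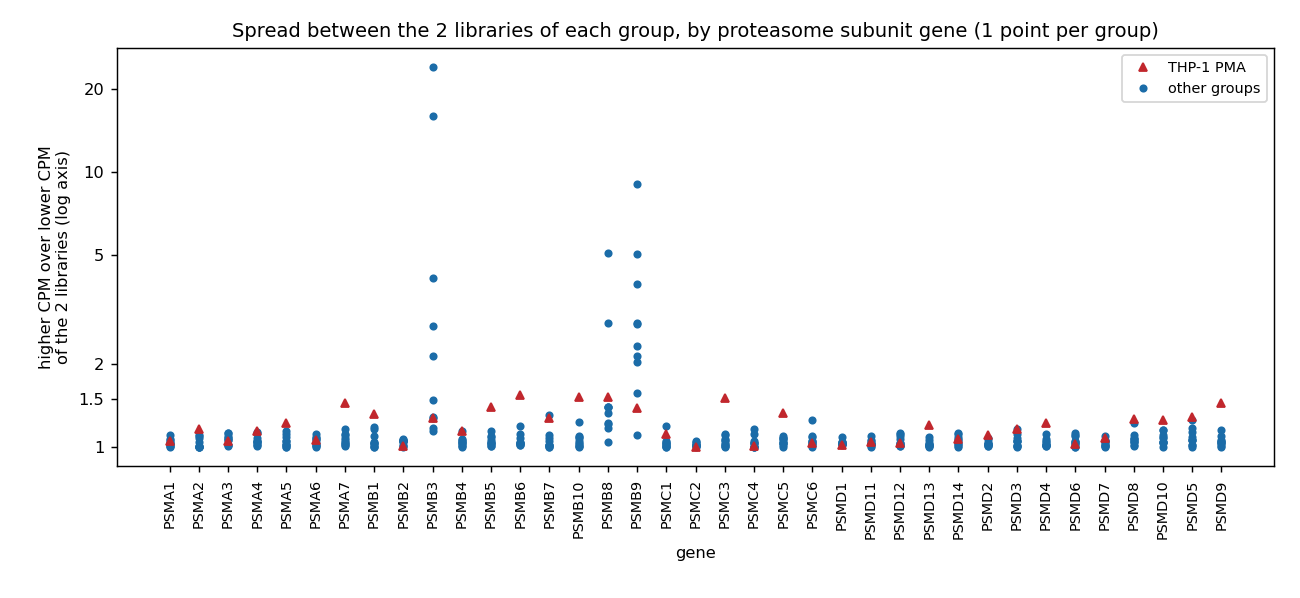
Spread between the 2 libraries of each group for each of the 37 tested genes. Each point is 1 group, the vertical log axis gives the higher CPM over the lower, and triangles mark the PMA pair. PSMB3, PSMB8 and PSMB9 reach 24.0, 5.09 and 9.02, and all other genes stay at or below 1.56.

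Within DMSO cells the standard subunits were not equal in transcript level. Per kilobase of exon, the means over the 3 lines ran from 8.63 CPM per kb (PSMD6) to 105 CPM per kb (PSMA7), a ratio of 12.2, with a median of 35.2 over 30 genes that leave out PSMB3. With the longest annotated transcript as the length, the ratio was 10.5. PSMA7 was followed by the beta subunit genes PSMB1 (100.4 CPM per kb) and PSMB4 (97.9 CPM per kb). Between lines PSMA7 ranged over 91.3 to 129 CPM per kb and PSMB1 over 79.0 to 123, so this order at the top is within the spread between lines. The immunoproteasome gene PSMB10, at 75 CPM per kb, would rank 4 among them, while PSMB8 had 3.49 CPM per kb and PSMB9 0.684 CPM per kb.

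At 24 h of BRM014 the members did not move together, and at 72 h most of them fell. Averaged over the 3 lines at 24 h, 14 of the 37 tested members rose and 9 fell, where 28.9% of all genes tested rose and 27.1% fell. At 72 h none rose and 31 fell, where 34.9% of all genes tested rose and 30.4% fell. The median log2 fold change of the members was 0.06 at 24 h and -0.42 at 72 h, against 0.03 and 0.07 over all genes tested. Without PSMB3, PSMB8 and PSMB9, 14 rose and 7 fell of 34 at 24 h, and none rose and 29 fell at 72 h. With library size alone in place of TMM, which shifted the median of all genes by 0.08 at 24 h and 0.11 at 72 h, the counts were 19 and 7 at 24 h and 1 and 23 at 72 h. In these bulk samples, fewer cells of a type and less RNA per cell cannot be told apart.

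Set directly against 24 h, the 72 h libraries were lower in most members. On average over the lines 33 members fell and none rose, where 23.4% of all genes tested fell and 24.6% rose, with a median of -0.44 against 0.03 over all genes. All 17 ATPase and other 19S subunits fell between these times. PSMC3, an ATPase, fell by 0.77 ± 0.07 and PSMC5 by 0.67 ± 0.06. The 4 members without a call were PSMA6 (0.03 ± 0.04), PSMB8 (-0.61 ± 0.27), PSMB9 (0.38 ± 0.73) and PSMD10 (-0.07 ± 0.07). The call of PSMD5 ended without MOLM-13 BRM014 72 h replicate 2, MV-4-11 BRM014 72 h replicate 2 or THP-1 BRM014 72 h replicate 2 (-0.16 to -0.14, adjusted p = 0.067 to 0.097), and that of PSMB3 without MOLM-13 BRM014 24 h replicate 1, MV-4-11 BRM014 24 h replicate 2, THP-1 BRM014 24 h replicate 1 or THP-1 BRM014 72 h replicate 1 (-1.97 to -0.81, adjusted p = 0.053 to 0.22).

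**Figure D2:**
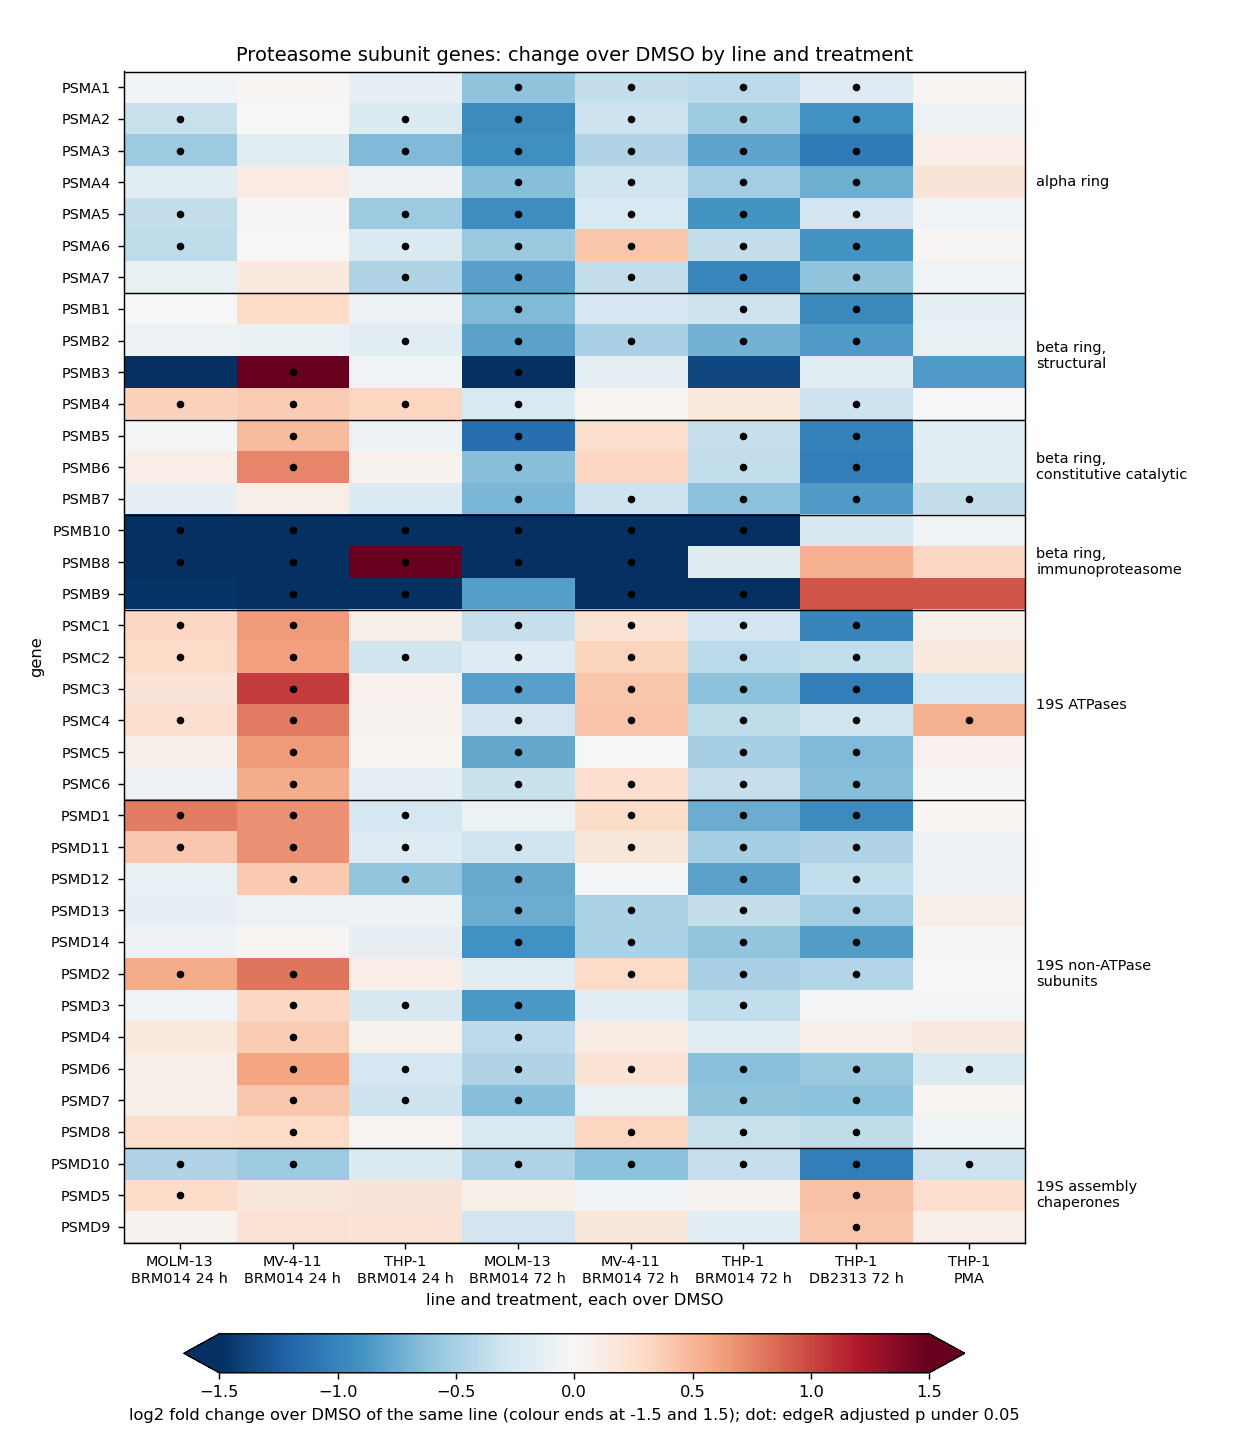
Log2 fold change over DMSO of each of the 37 tested genes (rows, by role) in each line and treatment (columns), from 2 libraries per group. Dots mark an edgeR adjusted p under 0.05, and colours end at -1.5 and 1.5. PSMB10 is dark blue in all 6 BRM014 columns, and MV-4-11 at 24 h has most of the red ones, with 19 members called higher.

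Of all members, PSMB10 had the lowest fold change among genes with a small spread, and its fall was of like size in the 3 lines. It encodes the immunoproteasome subunit that takes the place of the one from PSMB7 (chromosome 16, 67934502 to 67937087, minus strand). In MOLM-13 PSMB10 had 49.5 and 50.1 CPM at 24 h, 31.3 and 32.4 CPM at 72 h and 126 and 138 CPM with DMSO. In MV-4-11 PSMB10 had 39.5 and 37.5 CPM at 24 h, 35.5 and 35 CPM at 72 h and 124 and 134 CPM with DMSO. In THP-1 PSMB10 had 50.5 and 46.4 CPM at 24 h, 38.1 and 39.2 CPM at 72 h and 156 and 157 CPM with DMSO. Every BRM014 library was lower than every DMSO library of any line, with no overlap. The log2 fold changes in MOLM-13, MV-4-11 and THP-1 were -1.53, -1.81 and -1.74 at 24 h and -2.24, -1.93 and -2.10 at 72 h (SE 0.15 each), or -1.69 ± 0.09 (adjusted p = 7e-13) and -2.09 ± 0.09 (adjusted p = 1.3e-14) in the mean. A test of the difference between lines gave an adjusted p of 0.49 at 24 h and 0.44 at 72 h. PSMB10 was the 1 member called lower in all 3 lines at 24 h, where 9.49% of all genes tested were.

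PSMB7, which encodes the constitutive trypsin-like subunit, changed less. In MOLM-13 PSMB7 had 73.7 and 70.1 CPM at 24 h, 51 and 51 CPM at 72 h and 70.9 and 72.4 CPM with DMSO. MV-4-11 cells gave PSMB7 94.6 and 95.7 CPM at 24 h, 71.6 and 71.1 CPM at 72 h and 84.1 and 85.8 CPM with DMSO. For PSMB7 in THP-1 the levels were 54.5 and 49.2 CPM at 24 h, 38.4 and 41.5 CPM at 72 h and 57.3 and 58.3 CPM with DMSO. Averaged over the lines it was at -0.08 ± 0.07 at 24 h (adjusted p = 0.37) and fell by 0.54 ± 0.07 at 72 h. The balance of the pair, as the ratio of PSMB10 to PSMB7 in CPM per kilobase of annotated exon, was lower with BRM014 in each line. It was 0.668 ± 0.0302 at 24 h and 0.601 ± 0.0141 at 72 h, against 1.77 ± 0.0897 with DMSO in MOLM-13. In MV-4-11 it was 0.390 ± 0.0177 and 0.476 ± 0.00270, against 1.46 ± 0.0607. In THP-1 it was 0.901 ± 0.00993 and 0.934 ± 0.0334, against 2.61 ± 0.0265 (SD, n = 2 each). With the other 2 treatments of THP-1 the ratio was above that of DMSO, at 3.99 ± 0.164 with DB2313 and 3.18 ± 0.399 with PMA. There mean PSMB7 was lower than with DMSO, at 18.9 (DB2313) and 23.8 (PMA) against 32.3 CPM per kb. Mean PSMB10 was not higher, at 75.2 and 76.6 against 84.5 CPM per kb.

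The other immunoproteasome genes lie side by side in the MHC region of chromosome 6 and had few reads. PSMB8 (chromosome 6, 32840717 to 32844703, minus strand) encodes the counterpart of the PSMB5 subunit. In MOLM-13 PSMB8 had 1.92 and 1.64 CPM at 24 h, 1.63 and 2.29 CPM at 72 h and 9.84 and 12 CPM with DMSO. MV-4-11 cells gave PSMB8 4.70 and 6.60 CPM at 24 h, 4.77 and 6.70 CPM at 72 h and 18.3 and 19.3 CPM with DMSO. For PSMB8 in THP-1 the levels were 5.33 and 7.09 CPM at 24 h, 2.43 and 0.858 CPM at 72 h and 0.564 and 2.87 CPM with DMSO. It was lower than DMSO in MOLM-13 and MV-4-11 at both times without overlap, and in THP-1 it rose at 24 h, by 1.75 ± 0.46. The THP-1 rise rests on DMSO values of under 3 CPM that differed by 5.09 times, and its call ended without THP-1 DMSO replicate 1 (1.06, adjusted p = 0.051). Averaged over the lines PSMB8 fell by 0.93 ± 0.26 at 24 h and by 1.54 ± 0.26 at 72 h, and the 24 h call ended without THP-1 DMSO replicate 2 (-0.37, adjusted p = 0.28). PSMB9 (chromosome 6, 32844136 to 32859585, plus strand) had 1 to 5 reads per library in MOLM-13, 8 to 35 reads with BRM014 against 24 and 140 with DMSO in MV-4-11, and 1 to 10 with BRM014 against 17 and 61 with DMSO in THP-1. Averaged over the lines it was called lower at both times (-2.20 ± 0.66 and -1.82 ± 0.62), but those calls ended without MOLM-13 DMSO replicate 1 (-2.09, adjusted p = 0.06) at 24 h and without MOLM-13 DMSO replicate 1 or MV-4-11 DMSO replicate 2 (-1.71 to -1.28, adjusted p = 0.051 to 0.088) at 72 h.

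**Figure D3:**
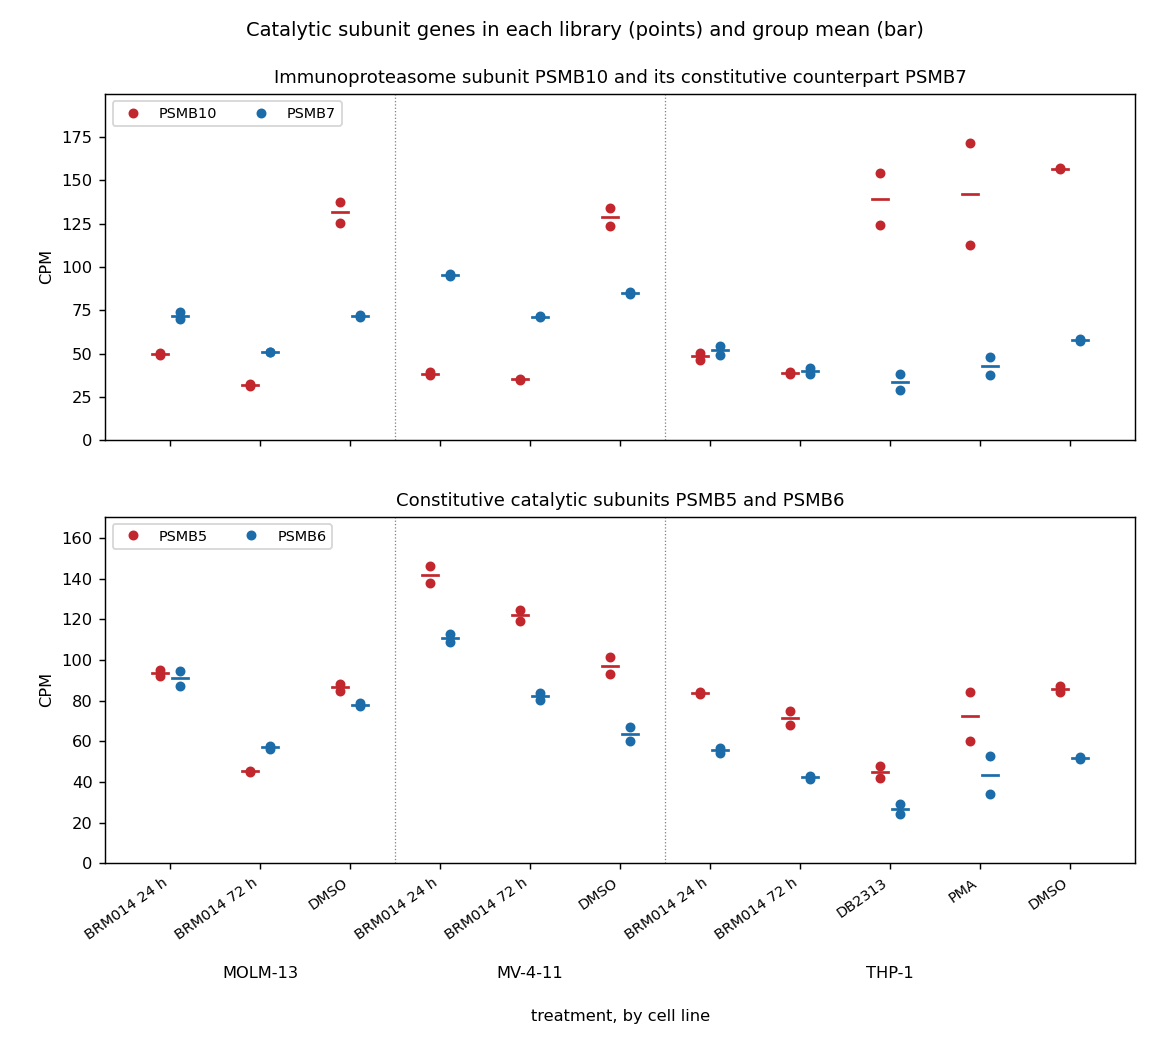
CPM of PSMB10 and PSMB7 (top) and of PSMB5 and PSMB6 (bottom) in each library (points) with the group mean (bar), by line and treatment. PSMB10 is at 31.3 to 50.5 CPM in the BRM014 libraries and at 112 to 171 CPM in all others, while the PMA pair is split for each gene.

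Sequence at the start of these genes is shown for a repeat that interferon regulatory factors bind, a pair of GAAA runs with any 2 bases between them, since the immunoproteasome genes are known to respond to interferon. RefSeq promoter windows on GRCh38.p14, 250 bases before to 50 after each start, were found for 34 of the 39 members (41 windows). The repeat was searched on both strands and was in 4 of the 41 windows (9.76%) and in 3.57% of all 35116. The 4 genes were PSMB10, PSMB8, PSMB4 and PSMA4. Each is given as 30 bases in the direction of the gene, with the match in capitals.
PSMB10: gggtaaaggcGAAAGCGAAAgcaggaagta
PSMB8: gatctgtggcTTTCGCTTTCacttcctcct
PSMB4: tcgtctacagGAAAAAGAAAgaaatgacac
PSMA4: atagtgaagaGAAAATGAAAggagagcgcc
They lie at chr16:67936852-67936881 (minus strand), chr6:32844032-32844061 (minus strand), chr1:151399495-151399524 (plus strand) and chr15:78540155-78540184 (plus strand), and the PSMB8 match reads on the other strand. The matches start at -21, -4, -68 and -240 bases from the RefSeq start of their window, negative values lying before it. That start can differ from the GENCODE one, and the PSMB10 and PSMB8 matches lie inside the GENCODE genes given above. At 24 h these genes had no common direction, since PSMB10 fell in each line, PSMB4 rose in each line and PSMA4 had no call in any. A match is a description of the letters only.

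The constitutive catalytic genes PSMB5 (chymotrypsin-like activity) and PSMB6 (caspase-like activity) differed in their response between the lines. In MOLM-13 PSMB5 had 95.1 and 92.2 CPM at 24 h, 45.6 and 44.9 CPM at 72 h and 84.8 and 88.4 CPM with DMSO. In MV-4-11 PSMB5 had 146 and 138 CPM at 24 h, 119.5 and 124 CPM at 72 h and 93 and 102 CPM with DMSO. In THP-1 PSMB5 had 84.1 and 83.3 CPM at 24 h, 68.3 and 74.9 CPM at 72 h and 87 and 84.1 CPM with DMSO. The MV-4-11 libraries at both times lay above DMSO, and the MOLM-13 libraries at 72 h lay below those of DMSO. PSMB5 rose in MV-4-11 at 24 h (0.47 ± 0.12) and fell in MOLM-13 at 72 h (-1.13 ± 0.12), and its effect differed between lines (adjusted p = 0.018 at 24 h, 3.7e-06 at 72 h). The 24 h call of that difference ended without MV-4-11 BRM014 24 h replicate 1 or MV-4-11 DMSO replicate 1 (adjusted p = 0.079 to 0.11). Its fall in THP-1 at 72 h (-0.34 ± 0.12) ended without THP-1 BRM014 72 h replicate 1 or either THP-1 DMSO library (-0.36 to -0.28, adjusted p = 0.054 to 0.13). In MOLM-13 PSMB6 had 94.8 and 87.4 CPM at 24 h, 56.4 and 57.9 CPM at 72 h and 77.3 and 78.8 CPM with DMSO. MV-4-11 cells gave PSMB6 113 and 109 CPM at 24 h, 83.8 and 80.4 CPM at 72 h and 60.03 and 67.2 CPM with DMSO. For PSMB6 in THP-1 the levels were 56.9 and 54.3 CPM at 24 h, 43.2 and 41.6 CPM at 72 h and 52.3 and 51.2 CPM with DMSO. The order of the groups was the same for PSMB6 in MV-4-11 (24 h, then 72 h, then DMSO, from high to low) and it rose there at 24 h by 0.73 ± 0.14. At 72 h it fell in MOLM-13 (-0.64 ± 0.14) and was at 0.31 ± 0.14 in MV-4-11 (adjusted p = 0.066), and the test between lines gave an adjusted p of 0.012 at 24 h and 0.0011 at 72 h. The 24 h call ended without MV-4-11 DMSO replicate 1 (adjusted p = 0.08). Its fall in the mean at 72 h (-0.24 ± 0.08) ended without MV-4-11 DMSO replicate 2 (-0.20, adjusted p = 0.052).

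Among the structural beta genes, PSMB4 was the 1 member called higher in all 3 lines at 24 h, where 9.12% of all genes tested were. In MOLM-13 PSMB4 had 266 and 264 CPM at 24 h, 181 and 192 CPM at 72 h and 186 and 196 CPM with DMSO. MV-4-11 cells gave PSMB4 297 and 301 CPM at 24 h, 229 and 238 CPM at 72 h and 210.3 and 226 CPM with DMSO. For PSMB4 in THP-1 the levels were 295 and 282 CPM at 24 h, 268 and 262 CPM at 72 h and 220.4 and 228 CPM with DMSO. Its 24 h libraries lay above the DMSO libraries in each line, with log2 fold changes of 0.35, 0.38 and 0.32 (SE 0.08 each). At 72 h it was at -0.01 ± 0.05 in the mean (adjusted p = 0.94), the highest value in the beta ring, but at 0.10 and called higher with library size alone. By line PSMB4 was called lower in MOLM-13 (-0.23) and had no call in MV-4-11 (0.04) or THP-1 (0.16). The MOLM-13 call ended without MOLM-13 BRM014 72 h replicate 1 or MOLM-13 DMSO replicate 2 (-0.18 to -0.17). Its 72 h effect was called different between lines, a call that ended without any of 4 single libraries. PSMB2 fell in each line at 72 h (-0.80, -0.49 and -0.71), and PSMB1 fell in MOLM-13 (-0.66 ± 0.11) and THP-1 (-0.31 ± 0.11). The THP-1 call of PSMB1 ended without either THP-1 BRM014 72 h library or either THP-1 DMSO library (-0.32 to -0.31, adjusted p = 0.072 to 0.081). PSMB3 was called higher in MV-4-11 at 24 h (4.11 ± 1.02), which rests on 1 library of 143 CPM. Without it, the value was 0.47 (adjusted p = 0.77). It was called lower in MOLM-13 at 72 h (-2.92 ± 1.04), and that call ended without either MOLM-13 BRM014 72 h library or MOLM-13 DMSO replicate 1 (-3.03 to 0.13, adjusted p = 0.086 to 1).

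The alpha ring genes, averaged over the lines, fell or had no call at 24 h, and all 7 tested fell at 72 h. That was 4 of 7 lower at 24 h and 7 of 7 at 72 h, where 27.1% and 30.4% of all genes tested were lower. The 24 h falls were in PSMA2, PSMA3, PSMA5 and PSMA6, and the median of the ring was -0.18 at 24 h and -0.60 at 72 h. PSMA3 and PSMA7 had the lowest values at 72 h (-0.72 ± 0.05 and -0.72 ± 0.07). In MOLM-13 PSMA3 had 101 and 103 CPM at 24 h, 77.8 and 87.8 CPM at 72 h and 143 and 130.2 CPM with DMSO. In MV-4-11 PSMA3 had 99.99 and 88.8 CPM at 24 h, 76.9 and 77.5 CPM at 72 h and 102 and 100.1 CPM with DMSO. In THP-1 PSMA3 had 87 and 80.5 CPM at 24 h, 81 and 75.9 CPM at 72 h and 134 and 123 CPM with DMSO. Both BRM014 times were below DMSO in each line without overlap, though at 24 h in MV-4-11 by little. In MV-4-11 the 24 h value of PSMA3 was -0.17 ± 0.08 (adjusted p = 0.10) and none of the 7 genes was called at that time in this line, against 4 called lower in MOLM-13 (23.5% of all genes tested) and 5 in THP-1 (24.1%). Of the MOLM-13 calls, PSMA2 ended without MOLM-13 BRM014 24 h replicate 2 (-0.26, adjusted p = 0.061) and PSMA5 without MOLM-13 BRM014 24 h replicate 2 (-0.29, adjusted p = 0.07). In MOLM-13 PSMA7 had 158 and 165 CPM at 24 h, 105 and 103 CPM at 72 h and 154 and 166 CPM with DMSO. MV-4-11 cells gave PSMA7 190.3 and 195 CPM at 24 h, 132 and 139 CPM at 72 h and 156 and 176 CPM with DMSO. For PSMA7 in THP-1 the levels were 176 and 165 CPM at 24 h, 115 and 128 CPM at 72 h and 224 and 229 CPM with DMSO. PSMA7 levels at 72 h were below those of DMSO in each line. Its 72 h call in MV-4-11 ended without either MV-4-11 BRM014 72 h library or MV-4-11 DMSO replicate 2 (-0.39 to -0.25, adjusted p = 0.064 to 0.21), and its 24 h call in THP-1 without THP-1 BRM014 24 h replicate 2 (-0.40, adjusted p = 0.057).

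PSMA6 stood apart from the rest of its ring at 72 h in MV-4-11. In MOLM-13 PSMA6 had 166 and 152 CPM at 24 h, 142 and 152 CPM at 72 h and 195 and 184 CPM with DMSO. MV-4-11 cells gave PSMA6 188 and 196 CPM at 24 h, 253 and 256 CPM at 72 h and 183 and 183 CPM with DMSO. For PSMA6 in THP-1 the levels were 152 and 155 CPM at 24 h, 142 and 145 CPM at 72 h and 165 and 179.5 CPM with DMSO. In MV-4-11 the 72 h libraries were the highest of the 3 groups, and in the other 2 lines the BRM014 libraries were below DMSO. The log2 fold changes at 72 h were -0.56 ± 0.07 in MOLM-13, 0.42 ± 0.07 in MV-4-11 and -0.35 ± 0.07 in THP-1, and the difference between lines had an adjusted p of 3.6e-07. The other 6 alpha genes fell in MV-4-11 at 72 h, where 26.1% of all genes tested fell, by log2 fold changes between -0.45 (PSMA3) and -0.23 (PSMA5). The call of PSMA5 there ended without any of 15 single libraries (-0.25 to -0.22). In THP-1 at 24 h, the calls of PSMA2 and PSMA6 ended without any of 17 single libraries (-0.24 to -0.16, adjusted p = 0.05 to 0.24) and without either THP-1 BRM014 24 h library or THP-1 DMSO replicate 2 (-0.22 to -0.14, adjusted p = 0.076 to 0.23).

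All 6 ATPase genes of the 19S cap were called higher in MV-4-11 at 24 h (23.6% of all genes tested were), and all 6 were called lower at 72 h in MOLM-13 (29.4%) and in THP-1 (28.0%). Library size alone in place of TMM shifted the median of all genes by 0.19 in MOLM-13 at 72 h. Members called lower there were then 25, against 31 with TMM. Some of the ATPase calls at 72 h ended when 1 library was left out. In MOLM-13 the call of PSMC2 ended without MOLM-13 BRM014 72 h replicate 1 (-0.17, adjusted p = 0.1) and that of PSMC6 without MOLM-13 DMSO replicate 1 (-0.18, adjusted p = 0.12), and in THP-1 that of PSMC1 ended without THP-1 DMSO replicate 2 (-0.24, adjusted p = 0.061). Averaged over the lines 5 rose at 24 h, where 28.9% of all genes tested rose, and 5 fell at 72 h, where 30.4% fell. The 72 h call of PSMC6 in that average ended without MOLM-13 BRM014 72 h replicate 2, MOLM-13 DMSO replicate 1, MV-4-11 BRM014 72 h replicate 2 or THP-1 DMSO replicate 2 (-0.13 to -0.09, adjusted p = 0.055 to 0.11). PSMC3 had the highest rise in MV-4-11, 1.05 ± 0.13. In MOLM-13 PSMC3 had 181 and 175 CPM at 24 h, 91.6 and 94.1 CPM at 72 h and 138 and 148 CPM with DMSO. In MV-4-11 PSMC3 had 211 and 224 CPM at 24 h, 139 and 141 CPM at 72 h and 101 and 99.6 CPM with DMSO. In THP-1 PSMC3 had 248 and 234 CPM at 24 h, 146 and 161 CPM at 72 h and 222 and 222 CPM with DMSO. In MOLM-13 its libraries were highest at 24 h and lowest at 72 h, and in MV-4-11 both BRM014 times were above DMSO. PSMC4, the ATPase with the highest 72 h value in the mean (-0.08 ± 0.05, adjusted p = 0.17), followed the same order in MV-4-11, with 137 and 130.4 CPM at 24 h, 104 and 104 CPM at 72 h and 72.8 and 75.2 CPM with DMSO. In MOLM-13 it had 137 and 142 CPM at 24 h, 101 and 101 CPM at 72 h and 107 and 107 CPM with DMSO, and in THP-1 72.9 and 75.7 CPM at 24 h, 56.4 and 56 CPM at 72 h and 64 and 74.4 CPM with DMSO. PSMC5, the lowest (-0.42 ± 0.06), had 152 and 140.4 CPM at 24 h, 81.9 and 88.2 CPM at 72 h and 125 and 129 CPM with DMSO in MOLM-13. Its MV-4-11 values were 223 and 231 CPM at 24 h, 139 and 150.4 CPM at 72 h and 140.4 and 138 CPM with DMSO, and its THP-1 values 136 and 136 CPM at 24 h, 95.1 and 98.5 CPM at 72 h and 125 and 132 CPM with DMSO. All 3 genes were lower at 72 h than at 24 h in each library of each line.

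PSMC2 was the ATPase with the lowest p in the test between lines at 24 h (adjusted p = 4.7e-07). In MOLM-13 PSMC2 had 133 and 131 CPM at 24 h, 96.9 and 101 CPM at 72 h and 100.2 and 98.3 CPM with DMSO. MV-4-11 cells gave PSMC2 126 and 125 CPM at 24 h, 102 and 102 CPM at 72 h and 76.2 and 79.5 CPM with DMSO. For PSMC2 in THP-1 the levels were 106 and 104 CPM at 24 h, 101 and 99.3 CPM at 72 h and 127 and 124 CPM with DMSO. Its 24 h libraries were above DMSO in MOLM-13 and MV-4-11 and below it in THP-1, without overlap, while its 72 h and DMSO libraries overlapped in CPM in MOLM-13. Its MOLM-13 call at 72 h (-0.20 ± 0.06) depended on TMM, with a value of -0.0052 with library size alone. The 24 h log2 fold changes were 0.28 ± 0.06, 0.61 ± 0.06 and -0.30 ± 0.06 in MOLM-13, MV-4-11 and THP-1. At 72 h its mean over the lines was -0.09 ± 0.04, a call that ended without any of 13 single libraries (-0.10 to -0.08, adjusted p = 0.051 to 0.13) and turned to 0.02 with library size alone (adjusted p = 0.66). In MV-4-11 at 72 h PSMC1, PSMC2, PSMC3, PSMC4 and PSMC6 were higher than with DMSO (0.21 to 0.43), and the calls of PSMC1 and PSMC6 ended without MOLM-13 BRM014 24 h replicate 2, either MV-4-11 BRM014 24 h library, either MV-4-11 BRM014 72 h library or either MV-4-11 DMSO library (0.20 to 0.21, adjusted p = 0.055 to 0.14) and without MV-4-11 BRM014 72 h replicate 1 or either MV-4-11 DMSO library (0.21 to 0.26, adjusted p = 0.069 to 0.13).

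Of the 11 other subunits of the cap, 6 rose in the mean at 24 h and none fell, where 28.9% of all genes tested rose and 27.1% fell, and 10 fell at 72 h and none rose, where 30.4% fell and 34.9% rose. The lines differed behind these means. At 24 h, 3 rose in MOLM-13 (22.7% of all genes tested) and 9 in MV-4-11 (23.6%), while 6 fell in THP-1 (24.1%). At 72 h, 8 fell in MOLM-13 (29.4%) and 10 in THP-1 (28.0%), while in MV-4-11 5 rose and 2 fell (28.4% and 26.1%). The 24 h call of PSMD6 in the mean ended without THP-1 BRM014 24 h replicate 1 (0.11, adjusted p = 0.07). PSMD1, a scaffold of the cap's base (chromosome 2, 231056864 to 231172827, plus strand), had the lowest p of all members in the test between lines at both times (adjusted p = 2.2e-08 at 24 h, 5e-08 at 72 h). In MOLM-13 PSMD1 had 211 and 204 CPM at 24 h, 118 and 122 CPM at 72 h and 117 and 107 CPM with DMSO. MV-4-11 cells gave PSMD1 185 and 193 CPM at 24 h, 139 and 142 CPM at 72 h and 109.8 and 113 CPM with DMSO. For PSMD1 in THP-1 the levels were 164 and 159 CPM at 24 h, 121 and 117 CPM at 72 h and 184 and 192 CPM with DMSO. At 24 h the libraries were above DMSO in MOLM-13 and MV-4-11 and below it in THP-1, with changes of 0.76 ± 0.06, 0.69 ± 0.06 and -0.27 ± 0.06. At 72 h PSMD1 was still above DMSO in MV-4-11 (0.28 ± 0.06), was at -0.09 ± 0.06 in MOLM-13 (adjusted p = 0.26) and fell in THP-1 (-0.75 ± 0.06). PSMD2, the other scaffold of the base, had 579 and 619 CPM at 24 h, 413 and 418 CPM at 72 h and 325 and 330.2 CPM with DMSO in MV-4-11, the highest levels in CPM of any member. Its 24 h changes were 0.56, 0.80 and 0.09 in MOLM-13, MV-4-11 and THP-1, and the THP-1 value had no call.

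PSMD11 and PSMD12, subunits of the lid, and PSMD6 and PSMD7 had opposite calls in MV-4-11 and THP-1 at 24 h too. PSMD12 had 159.6 and 153 CPM at 24 h, 117 and 114 CPM at 72 h and 114 and 112 CPM with DMSO in MV-4-11. In THP-1 it had 92.2 and 90.8 CPM at 24 h, 85.3 and 76.2 CPM at 72 h and 131 and 136 CPM with DMSO. The 24 h libraries thus lay on opposite sides of DMSO in these lines (0.40 ± 0.08 and -0.59 ± 0.08; adjusted p = 1.6e-06 for the difference over the 3 lines). PSMD11 was at 0.41, 0.68 and -0.19 in MOLM-13, MV-4-11 and THP-1, PSMD6 at 0.08, 0.60 and -0.27 and PSMD7 at 0.07, 0.40 and -0.31. The THP-1 calls of PSMD11, PSMD6 and PSMD3 ended without either THP-1 BRM014 24 h library or either THP-1 DMSO library (-0.22 to -0.16, adjusted p = 0.053 to 0.17), without THP-1 BRM014 24 h replicate 2 or THP-1 DMSO replicate 2 (-0.24 to -0.17, adjusted p = 0.072 to 0.17) and without either THP-1 BRM014 24 h library or either THP-1 DMSO library (-0.29 to -0.19, adjusted p = 0.052 to 0.20). The MV-4-11 call of PSMD3 ended without MV-4-11 BRM014 24 h replicate 2 or MV-4-11 DMSO replicate 1 (0.27 to 0.29, adjusted p = 0.054 to 0.071). PSMD14, the deubiquitinase of the lid, had no call at 24 h in any line and the lowest 72 h value of these subunits (-0.66 ± 0.05). In MOLM-13 PSMD14 had 93.5 and 87.5 CPM at 24 h, 53.8 and 52.5 CPM at 72 h and 92.5 and 82.1 CPM with DMSO. In MV-4-11 PSMD14 had 117 and 114 CPM at 24 h, 83.7 and 76.6 CPM at 72 h and 107 and 106 CPM with DMSO. In THP-1 PSMD14 had 99.7 and 95.6 CPM at 24 h, 68.6 and 76.6 CPM at 72 h and 102 and 104 CPM with DMSO. The 72 h libraries were below DMSO in each line. PSMD8 had the highest 72 h value of the 11 (-0.08 ± 0.06, adjusted p = 0.29), and PSMD4 and PSMD13 fell in the mean, PSMD4, a ubiquitin receptor, by 0.15 ± 0.05 and PSMD13 by 0.52 ± 0.05. Of the weaker 72 h calls in the mean, those of PSMD2 and PSMD4 ended without MOLM-13 BRM014 72 h replicate 2 (-0.10, adjusted p = 0.056) and without MOLM-13 BRM014 72 h replicate 1 or MV-4-11 DMSO replicate 2 (-0.13, adjusted p = 0.054 to 0.055).

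**Figure D4:**
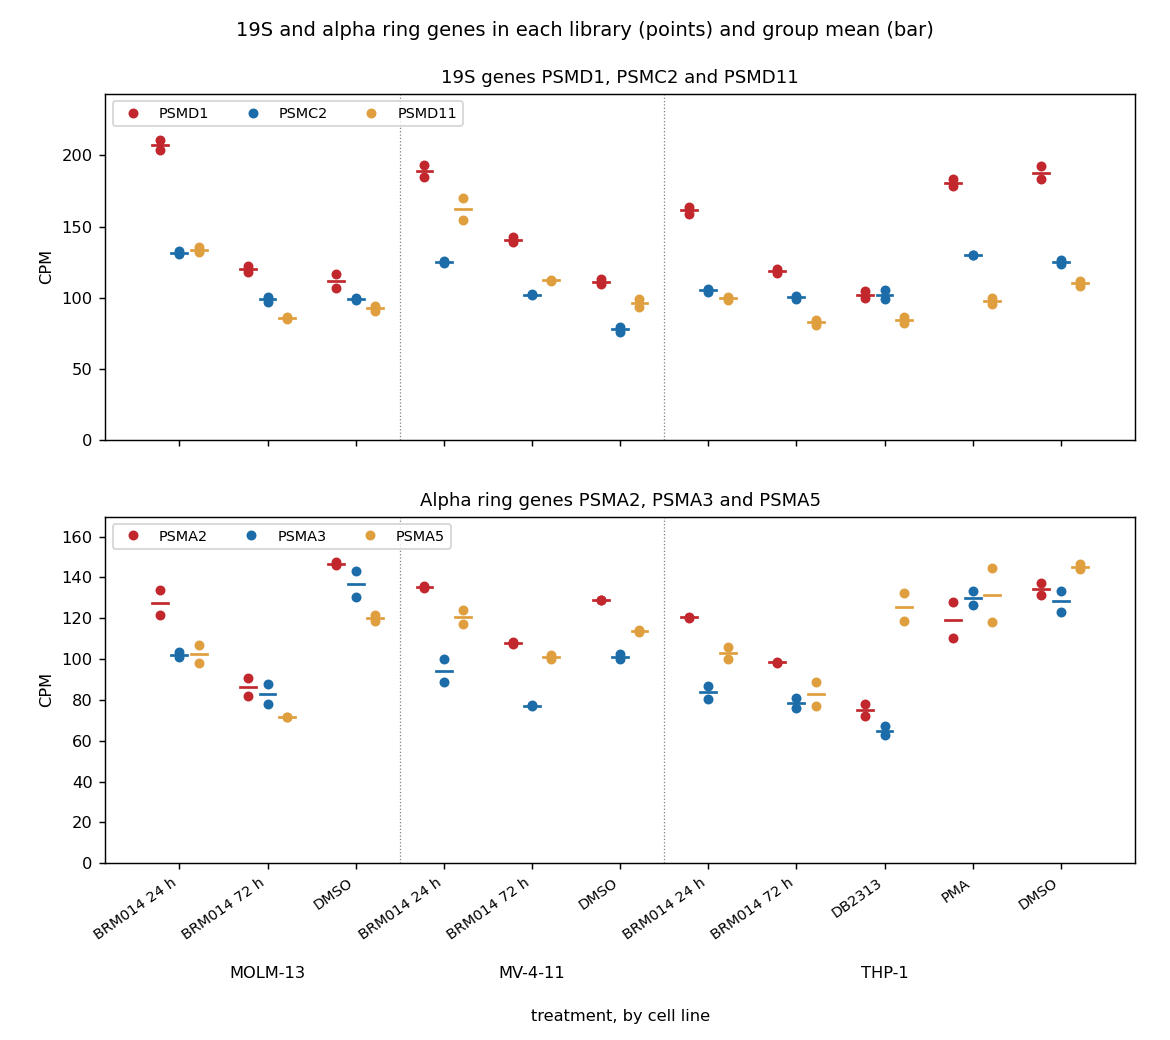
CPM of the 19S genes PSMD1, PSMC2 and PSMD11 (top) and of the alpha ring genes PSMA2, PSMA3 and PSMA5 (bottom) in each library (points) with the group mean (bar). The 19S genes are above DMSO at 24 h in MOLM-13 and MV-4-11 and below it in THP-1, and the alpha genes are below DMSO at 72 h in each line.

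Promoters of the 19S genes are shown for TGACNNNGC, the core of the antioxidant response element, because NFE2L1, the factor known to raise proteasome genes when proteasome activity is short, binds this element with small MAF partners. On both strands it was in 10 of the 41 windows of members (24.4%) and in 13.3% of all windows, and the 10 genes were PSMA4, PSMB3, PSMB9, PSMC4, PSMC5, PSMD1, PSMD3, PSMD5, PSMD9 and PSMD12. Each line below gives 30 bases in the direction of the gene, with the match in capitals.
PSMD1: ggcggcctgaggaggcgacTGACTGAGCag
PSMD12: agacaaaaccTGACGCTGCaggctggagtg
PSMD3: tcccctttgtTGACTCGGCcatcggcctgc
PSMC4: acagaggccgGCTTGGTCActatggaggag
These are at chr2:231056887-231056916 (plus strand), chr17:67366723-67366752 (minus strand), chr17:39980760-39980789 (plus strand) and chr19:39971182-39971211 (plus strand), and the PSMC4 match reads on the other strand. The matches start at 40, -165, -37 and 28 bases from the RefSeq start of their window, negative before it, and PSMD3 holds a second match at 34. Among all members PSMA4 alone held both this motif and the interferon repeat, in separate windows. CCGGAAGT, a core of ETS family factors, was in 8 of the 41 windows (19.5%) and in 4.14% of all, and CCAAT in 18 (43.9%) and in 34.6% of all, with overlaps between these and the other motifs not counted.

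The chaperones of cap assembly went separate ways. PSMD10, averaged over the lines, fell at both times (-0.40 ± 0.07 and -0.47 ± 0.07) and was called lower in each line at 72 h. In MOLM-13 PSMD10 had 32 and 30.9 CPM at 24 h, 31.8 and 33.3 CPM at 72 h and 42.1 and 36.5 CPM with DMSO. MV-4-11 cells gave PSMD10 26.4 and 27.7 CPM at 24 h, 27.5 and 23.8 CPM at 72 h and 37.5 and 37.8 CPM with DMSO. For PSMD10 in THP-1 the levels were 30.5 and 33.1 CPM at 24 h, 29.1 and 30.6 CPM at 72 h and 37.2 and 34.2 CPM with DMSO. The BRM014 libraries were below DMSO in each line. The THP-1 call at 72 h ended without THP-1 BRM014 72 h replicate 1 or THP-1 DMSO replicate 1 (-0.31 to -0.29, adjusted p = 0.082 to 0.093). PSMD5, with the highest 72 h value of the PSMD genes (0.03 ± 0.06, adjusted p = 0.73), rose in the mean at 24 h (0.21 ± 0.06). In MOLM-13 it had 83.8 and 84 CPM at 24 h, 79.5 and 74.8 CPM at 72 h and 66.6 and 60.8 CPM with DMSO. In MV-4-11 it had 57.2 and 58.3 CPM at 24 h, 51.1 and 47.8 CPM at 72 h and 47.3 and 50.4 CPM with DMSO, and in THP-1 37.9 and 38.6 CPM at 24 h, 38.7 and 32.8 CPM at 72 h and 36.3 and 28.9 CPM with DMSO. PSMD9 had no BRM014 call at either time (0.16 ± 0.07 and -0.09 ± 0.07 in the mean). PSMD9 overlaps WDR66 on the same strand, so its values are uncertain.

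The 3 lines differed in how many members rose and fell. At 24 h, 8 rose and 7 fell in MOLM-13 (22.7% and 23.5% of all genes tested), 19 rose and 4 fell in MV-4-11 (23.6% and 22.4%), and 2 rose and 15 fell in THP-1 (25.9% and 24.1%). By the test of the difference itself, the 24 h effect differed between lines in 21 of the 37 members, where it did in 43.5% of all genes tested. In 8 members the 24 h calls had opposite directions in at least 1 pair of lines, against 8.13% of all genes tested, and these were PSMB8, PSMC2, PSMD1, PSMD3, PSMD6, PSMD7, PSMD11 and PSMD12. With library size alone, MOLM-13 had 13 higher and 7 lower at 24 h; that scaling shifted the median of all genes there by 0.13. The THP-1 count of 15 lower was 8 without THP-1 BRM014 24 h replicate 2 and 8 without THP-1 DMSO replicate 2.

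At 72 h the lines differed in another way. None rose and 31 fell in MOLM-13 (30.3% and 29.4% of all genes tested), 11 rose and 14 fell in MV-4-11 (28.4% and 26.1%), and none rose and 31 fell in THP-1 (30.9% and 28.0%). In 12 members the fall was called in all 3 lines, where 14.5% of all genes tested were, and these were 6 of the alpha genes (PSMA1, PSMA2, PSMA3, PSMA4, PSMA5 and PSMA7), PSMB2, PSMB7, PSMB10, PSMD10, PSMD13 and PSMD14. In 11 the calls had opposite directions, against 9.29% of all genes tested, each with MV-4-11 higher and at least 1 other line lower. The 72 h effect differed between lines in 27 of the 37 members by the test of the difference, against 52.9% of all genes tested. With library size alone, 1 rose and 25 fell in MOLM-13 and 13 rose and 12 fell in MV-4-11. In THP-1, 1 rose and 27 fell with that scaling. The MV-4-11 count of 11 higher was 7 without MV-4-11 BRM014 72 h replicate 1, 7 without its replicate 2 and 6 without MV-4-11 DMSO replicate 1. Among the MV-4-11 calls, PSMD11 ended without any of 15 single libraries (0.12 to 0.17, adjusted p = 0.051 to 0.29), and PSMD6 without either MV-4-11 BRM014 24 h library, either MV-4-11 BRM014 72 h library or either MV-4-11 DMSO library (0.19 to 0.21, adjusted p = 0.051 to 0.13). PSMD8 ended without MV-4-11 BRM014 72 h replicate 2 or MV-4-11 DMSO replicate 1 (0.28 to 0.29, adjusted p = 0.099 to 0.11), and PSMB7 without either MV-4-11 BRM014 72 h library or either MV-4-11 DMSO library (-0.33 to -0.28, adjusted p = 0.07 to 0.13).

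Summed levels of the parts of the particle differed between the lines as well. The 11 non-ATPase subunits of the cap summed to 2254 ± 64.2 CPM at 24 h and 1679 ± 5.36 at 72 h, against 1552 ± 25.3 with DMSO in MV-4-11. In MOLM-13 they summed to 1894 ± 8.75 and 1246 ± 13.6, against 1489.9 ± 4.34. In THP-1 the sums were 1627 ± 42.4 and 1309.5 ± 8.54, against 1721 ± 22.7 (SD, n = 2 each). The 72 h sum is above DMSO in MV-4-11 and below it in both other lines, by more than the spread between libraries. Alpha ring sums at 72 h were below DMSO in all 3 lines, at 799 ± 24.7 against 1167 ± 29.3 in MOLM-13, 1010.3 ± 10.5 against 1095 ± 13.1 in MV-4-11 and 805 ± 0.143 against 1172 ± 13.5 in THP-1. These sums are CPM without TMM scaling.

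**Figure D5:**
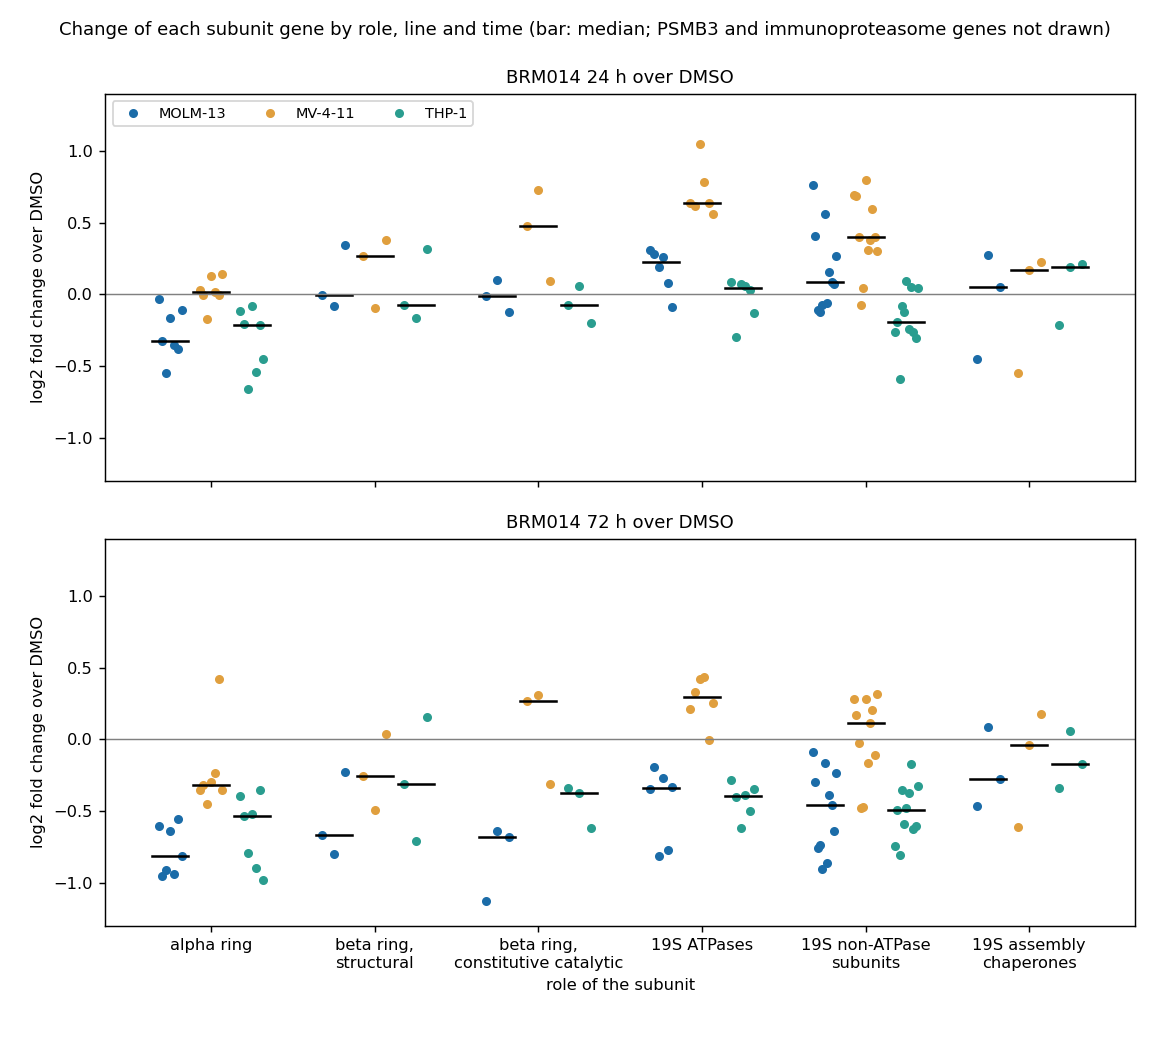
Log2 fold change over DMSO of 33 genes by role of the subunit and line, at 24 h (top) and 72 h (bottom) of BRM014. Points are genes, colours are lines and bars are medians, and PSMB3 and the immunoproteasome genes are not drawn. The 19S points of MV-4-11 reach 1.05 at 24 h, and at 72 h the alpha points are below 0 except PSMA6 in MV-4-11.

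DB2313, which acts on PU.1, lowered most of the family in THP-1 cells. It raised 2 members and lowered 29, where 35.9% of all genes tested rose and 29.5% fell, with a median of -0.56 against 0.14 over all genes. All 7 alpha genes, all 3 constitutive catalytic genes and all 6 ATPases were called lower. Of these, the call of PSMA1 ended without either THP-1 DMSO library or THP-1 DB2313 replicate 2 (-0.20 to -0.18, adjusted p = 0.061 to 0.08), that of PSMA5 without THP-1 DMSO replicate 1 or THP-1 DB2313 replicate 2 (-0.28 to -0.19, adjusted p = 0.053 to 0.17) and that of PSMC4 without THP-1 DMSO replicate 2 or THP-1 DB2313 replicate 2 (-0.20 to -0.18, adjusted p = 0.076 to 0.11). The lowest was PSMA3, at 67 and 63 CPM with DB2313 and 134 and 123 CPM with DMSO (-1.06 ± 0.09). PSMB5 had 47.7 and 41.8 CPM against 87 and 84.1 CPM (-1.01 ± 0.12), PSMB6 29 and 24.3 CPM against 52.3 and 51.2 CPM (-1.03 ± 0.15), and PSMC3 121 and 108 CPM against 222 and 222 CPM (-1.03 ± 0.13). The DB2313 and DMSO libraries of these 4 genes did not overlap, which follows from the size of their falls and is no further support. The share of all genes without overlap was not counted. None of the 3 immunoproteasome genes was called. PSMB10 had 154 and 124 CPM against 156 and 157 CPM with DMSO (-0.24 ± 0.14, adjusted p = 0.13), PSMB8 was at 0.54 ± 0.48 and PSMB9 at 0.94 ± 0.67. The 2 that rose were the chaperone genes PSMD5 (0.44 ± 0.11) and PSMD9 (0.41 ± 0.13). Their calls ended without THP-1 DMSO replicate 2 (0.29, adjusted p = 0.068) and without THP-1 DMSO replicate 1 (0.37, adjusted p = 0.057). Among the 19S subunits PSMD3 (-0.02 ± 0.09) and PSMD4 (0.09 ± 0.09) had no call. The labels do not say whether the DB2313 and DMSO libraries were made together, so a batch cannot be told apart from the treatment.

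Set against each other in THP-1 cells, 72 h of BRM014 and 72 h of DB2313 differed in 24 of the 37 tested members. Of these, 14 were higher with BRM014 and 10 lower, where 30.4% and 30.9% of all genes tested were. Calls were thus about as common among the members as among all genes tested. PSMB10 had 38.1 and 39.2 CPM with BRM014 and 154 and 124 CPM with DB2313 (-1.86 ± 0.15, adjusted p = 1.4e-09). PSMA5 was also lower with BRM014 (-0.61 ± 0.10). PSMC1 (0.71 ± 0.08), PSMD10 (0.70 ± 0.12), PSMB5 (0.67 ± 0.12), PSMB6 (0.66 ± 0.15) and PSMB1 (0.65 ± 0.11) were higher with BRM014. The count of 14 was 9 without THP-1 DB2313 replicate 2.

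PMA left most members near their DMSO level. It raised 1 member and lowered 3, where 18.9% of all genes tested rose and 17.1% fell. PSMC4 rose (0.53 ± 0.08), with 93.8 and 94.6 CPM with PMA and 64 and 74.4 CPM with DMSO, and PSMB7 (-0.35 ± 0.12), PSMD10 (-0.33 ± 0.11) and PSMD6 (-0.22 ± 0.08) fell. PSMB10 had 112 and 171 CPM with PMA, on both sides of the 156 and 157 CPM with DMSO, and PSMB6 33.8 and 52.6 CPM against 52.3 and 51.2 CPM. The PMA libraries stood apart from each other, and the counts followed which of them was kept. Higher and lower calls were 6 and 0 without THP-1 PMA replicate 1, and 2 and 11 without its replicate 2. They were 2 and 0 without either THP-1 DMSO library. The calls of PSMB7, PSMD10 and PSMD6 each ended without THP-1 PMA replicate 1 or either DMSO library.

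Genes that build, activate and assist the proteasome mostly fell or had no call. Over all genes tested, 28.9% rose and 27.1% fell at 24 h, and 34.9% rose and 30.4% fell at 72 h. Of 6 assembly chaperones of the core and cap, 5 fell at 24 h and all 6 at 72 h, with PSMG1, a chaperone of the alpha ring, at -0.79 ± 0.05 and -1.09 ± 0.05, PSMG4 at -0.96 ± 0.11 and -1.15 ± 0.11 and the maturation factor POMP at 0.02 ± 0.06 (adjusted p = 0.90) and -0.26 ± 0.06. Of 5 genes of proteasome activators and an inhibitor, none rose, 3 fell at 24 h and 5 at 72 h. PSME1 and PSME2, which form the interferon-responsive PA28 activator that pairs with the immunoproteasome, fell by 0.89 ± 0.06 and 0.69 ± 0.08 at 24 h, and PSME3 fell by 0.79 ± 0.04 at 72 h. Of 8 associated proteins, 2 rose and 3 fell at 24 h, and 1 rose and 7 fell at 72 h. The deubiquitinase UCHL5 was at -0.92 ± 0.06 and -1.36 ± 0.06, ADRM1, the ubiquitin receptor that holds it, at 0.43 ± 0.05 and -0.32 ± 0.05, and AKIRIN2, which brings proteasomes into the nucleus, at 0.49 ± 0.04 and 0.83 ± 0.04.

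Of the 8 genes of the NFE2L1 pathway, 5 rose and 3 fell at both times (all genes tested: 28.9% and 27.1% at 24 h, 34.9% and 30.4% at 72 h). The factor genes NFE2L1 (0.50 ± 0.04 and 0.66 ± 0.04) and NFE2L2 (1.26 ± 0.07 and 1.56 ± 0.07) rose, while DDI2, the protease that releases active NFE2L1, fell (-0.71 ± 0.12 at 24 h and -0.996 at 72 h). Of 15 genes of ubiquitin, its E1 enzymes and shuttle factors, 6 rose and 5 fell at 24 h and 3 rose and 10 fell at 72 h, with RPS27A, which encodes ubiquitin fused to a ribosomal protein, at -1.16 ± 0.12 and the shuttle UBQLN2 at 0.66 ± 0.07 at 72 h. Of 18 genes of interferon signalling and antigen presentation, 5 rose and 10 fell at 24 h and 9 rose and 5 fell at 72 h. The list thus had calls in both directions at both times, as did all genes tested. IRF8, a factor of monocytes, fell (-2.95 ± 0.05 and -3.82 ± 0.06), NLRC5, which drives MHC class I genes (0.63 ± 0.05 and 1.57 ± 0.05), rose, and IRF1 was at 0.04 ± 0.07 (adjusted p = 0.74) and rose by 0.29 ± 0.07 at 72 h. TAP1, beside PSMB8 and PSMB9, had no call (0.61 ± 0.73 and 1.28 ± 0.66).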

How the data were processed

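RNA was extracted with TRIzol and polyadenylated RNA was sequenced, per the labels' protocols. The authors deposited raw read counts per gene symbol, 1 table per library, and the tools listed in the submitters' processing notes are HISAT2 2.1.0, HTSeq and DESeq2, with hg38 as the build and no settings; annotation and strand are not given in the sources used here. The 5 summary lines of each table, which held 15.3 to 22.4% of its reads, were left out. From the counts, edgeR 4.0.16 (R 4.3.3) fitted 1 quasi-likelihood model over all 22 libraries with TMM factors (0.886 to 1.06), after filterByExpr with a minimum count of 10, and Benjamini-Hochberg adjustment over 16794 genes. CPM is a count's share of all gene reads, on the usual scale and without TMM, and SE is the fold change over the root of F. A called gene has an adjusted p under 0.05. Differences between lines were F tests.

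The members and the gene lists were chosen with earlier results of these data known. Values are given for PSMB5 to PSMB10, for the highest and lowest 72 h change of each role and for the genes with the lowest p between lines; of the other lists, at most the 2 highest and 2 lowest called genes and a set named by symbol. Coordinates are those of GENCODE v29 on GRCh38, matched by symbol, and 11 members have 30 pseudogenes there that could take reads. Figures and tables used Python 3.11.15, pandas 2.3.3, numpy 2.4.6 and matplotlib 3.10.9. The fit was tested on simulated counts. Alternatives were other scaling (library size alone, RLE), DESeq2 1.42.0, no filter, a replicate block, fits without the PMA and DB2313 libraries, without each library in turn, and, chosen after seeing the data, members without PSMB3, PSMB8 and PSMB9. Depth limits and intervals cover counting error only.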

Additional observations from a re-analysis of the deposited data

Results flagged for a closer look

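Effects of BRM014 that differed between MOLM-13, MV-4-11 and THP-1 by edgeR's test of the difference, with calls of opposite direction in at least 1 pair of lines, are listed here with their Benjamini-Hochberg adjusted p. Of the 37 members tested, the test called 21 at 24 h and 27 at 72 h, against 43.5% and 52.9% of all genes tested. Calls of opposite direction were seen in 8.13% of all genes tested at 24 h and in 9.29% at 72 h. At 24 h PSMD1 had an adjusted p of 2.2e-08, PSMC2 of 4.7e-07, PSMD11 of 1.6e-06 and PSMD12 of 1.6e-06. PSMD6 followed at 1.6e-05, PSMB8 at 2.7e-05, PSMD7 at 4e-05 and PSMD3 at 0.0046. In 7 of these 8 genes MV-4-11 was the line, or 1 of the lines, called higher and THP-1 the one called lower; PSMB8 was called higher in THP-1 and lower in the other 2 lines, on few reads. At 72 h PSMD1 had an adjusted p of 5e-08, PSMA6 of 3.6e-07, PSMC2 of 3.4e-06, PSMC4 of 7.9e-06, PSMD2 of 9.1e-06 and PSMD6 of 9.5e-06. The others were PSMC3 at 2.1e-05, PSMD11 at 3e-05, PSMC6 at 0.00041, PSMC1 at 0.00079 and PSMD8 at 0.003. In all 11, MV-4-11 was called higher and at least 1 other line lower.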

How the results depend on the processing

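With library size alone, 1 member was called higher in the mean at 72 h (0 with TMM), 13 in MOLM-13 at 24 h (8), 1 in MOLM-13 at 72 h (0) and 1 in THP-1 at 72 h (0), and PMA lowered 5 (3). That scaling also turned the mean 72 h value of PSMB4 to 0.10 and of PSMC2 to 0.022. Leaving out 1 library gave PSMB3 in MOLM-13 at 72 h -3.83 (without DMSO replicate 2) to 0.13 (without DMSO replicate 1). Without PSMB3, PSMB8 and PSMB9, MV-4-11 had 2 members lower at 24 h (4 with them) and THP-1 1 higher (2). Leaving out 1 library at a time gave 6 to 13 higher in MV-4-11 at 72 h, 8 to 15 lower in THP-1 at 24 h, 1 to 6 higher and 0 to 11 lower with PMA, 1 to 2 higher with DB2313 and 9 to 17 higher for BRM014 at 72 h against DB2313; every other count moved by at most 1.5 times. RLE factors, DESeq2, no filter and fits without the PMA and DB2313 libraries moved no count by more than that. Of 14393 values of single members under these settings, 339 lost their call and 208 gained one. A change of sign was counted only for values called in either fit, and 3 had one. The causes were not tested.

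Replicate numbers do not pair the libraries: over 55 pairs of groups the correlation of same-numbered deviations was -0.236 to 0.198 (median 0.00645). With the replicate block the members called were 15 higher and 9 lower in the mean at 24 h and 0 and 31 at 72 h, and 3 member calls were lost and 1 gained. Few reads limit PSMB8 and PSMB9.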

Other observations

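With DB2313, the subunit genes in THP-1 cells ran from -1.06 to 0.94, and all genes tested from -10.5 to 11.3. Wider ranges than that of the subunit genes were seen in proteasome-associated genes (-1.89 to 1.96), the NFE2L1 pathway (-0.91 to 4.80) and interferon signalling and antigen presentation (-2.93 to 2.30). Narrower ones were seen in activators and inhibitor (-0.79 to -0.10), ubiquitin, E1 and shuttle genes (-1.13 to 0.41) and assembly chaperones (-1.93 to -0.31). Over all genes tested, 35.9% rose and 29.5% fell with DB2313. Of 8 proteasome-associated genes 7 fell, with SEM1, a small subunit of the cap, at -1.89 ± 0.17 and the deubiquitinase UCHL5 at -1.44 ± 0.11, while AKIRIN2 rose by 1.96 ± 0.08. Of 6 assembly chaperones 5 fell, among them PSMG1 (-1.93 ± 0.10) and POMP (-0.89 ± 0.10). Of 8 genes of the NFE2L1 pathway 5 rose and 2 fell, and MAFF, a small MAF partner, was at 4.80 ± 0.33. Of 18 genes of interferon signalling and antigen presentation 10 rose and 3 fell, with NLRC5 at 2.18 ± 0.09, IRF1 at 1.60 ± 0.12 and IRF8 at -2.93 ± 0.09, beside no call for PSMB8, PSMB9 or PSMB10.

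With PMA, 12 of those 18 genes rose and 1 fell, where 18.9% of all genes tested rose and 17.1% fell, with NLRC5 at 0.54 ± 0.09 and IRF8 at -0.81 ± 0.08. PSME1, of the PA28 activator, rose by 0.39 ± 0.10, and PSME2 was at 0.22 ± 0.14 (edgeR adjusted p = 0.23). None of the 6 assembly chaperones was called. The difference between the DB2313 and PMA effects was not tested.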
